A study of Mus musculus with 18 samples.

Results

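A set of 4194 autosomal CpGs lay in CpG-dense DNA and were unmethylated or nearly so in wild-type mouse oocytes of the early antral follicle stage. A CpG was a member if at least 20 CpG positions, itself included, were listed within 100 bp on either side in any of the 18 libraries. It also needed at least 5 reads in at least 2 wild-type early antral follicle (EAF) oocytes and a mean methylation level over those oocytes of 10% or below. The series lists 1207879 CpG positions, of which 1160411 are autosomal and 104807 of these are CpG-dense by this count. Reads sufficed to apply the level condition at 4294 dense CpGs, and 97.7% of those were members. The members formed 427 blocks, a block being members at most 100 bp apart, with a median of 9 and at most 35 members per block.

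The study prepared reduced representation bisulfite libraries from single oocytes, in which MspI, an enzyme that cuts at CCGG, selects CpG-rich fragments and bisulfite converts unmethylated cytosines. The 4 groups were 2 Sall4 knockout and 4 wild-type oocytes of the EAF stage, and 5 Sall4 knockout and 7 wild-type oocytes of the earlier secondary follicle (SF) stage. Knockout oocytes came from Sall4fl/fl;Zp3-Cre females, in which Zp3-Cre is active in growing oocytes, and wild-type oocytes from Sall4fl/fl females, so all oocytes derive from mice carrying the floxed allele. The labels list the ages P12.5 and P17.5 on every sample, do not say which stage each belongs to, and name no animal. The tables of methylation counts do not measure the Sall4 deletion or oocyte marker genes, so neither was checked here.

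SALL4 is a zinc finger transcription factor. Growing mouse oocytes acquire DNA methylation during follicle growth through DNMT3A and its cofactor DNMT3L, mostly across transcribed regions, while most CpG islands stay unmethylated. The DNMT3A complex is known to be hindered by histone H3 that is methylated at lysine 4, a mark typical of CpG islands at promoters. A CpG is methylated symmetrically when the cytosines of both strands carry the methyl group, and on one strand only when it is hemimethylated.

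Each library is 1 oocyte and the labels give no animal, so each group counts as 1 sample and no test of a difference between groups was made. Means, SDs and ranges over oocytes describe the oocytes. Intervals are exact binomial intervals at 95% that cover counting error only. Copies from PCR are not independent molecules, and members of a block can share reads. The wild-type EAF oocytes chose the members, so their low level is a description and supports nothing. At the threshold, the 5 members just inside had levels of 10%, 9.99%, 9.53%, 9.30% and 9.17%, and the 5 dense CpGs just outside had 10.1%, 10.4%, 10.4%, 10.7% and 10.8%. Most members were far from it, since 4111 had no methylated read in any wild-type EAF oocyte with 5 reads and 83 had at least 1. Coverage in the choosing group was thin, with 3862 members read at this depth in 2 wild-type EAF oocytes, 270 in 3 and 62 in all 4.

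Reads counted at all CpGs ranged between 464501 and 6518646 per library, and 403 to 2630 members had at least 5 reads in an oocyte. A stretch of chromosome 17 (mm9), with members from position 39980057 to 39985589, stood apart and was singled out after its values were seen. It held 65 members, 1.55% of all, yet 9.34% to 50.1% of the reads on members in an oocyte. All 46 members that had 5 reads in every one of the 18 oocytes lay there, and so did 58 of the 83 members with a methylated read in the choosing oocytes and 55 of the 98 dense CpGs between 10% and 80%. No annotation of mm9 was used, so neither this stretch nor any block is given a gene name. Results are given with and without it.

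Residual methylation was low in every group, and on these members its means were higher at the SF stage than at the EAF stage, whose wild-type oocytes chose them. Over all members, the mean level was 0.482% ± 0.322 in EAF knockout oocytes (SD, n = 2) and 0.154% ± 0.124 in EAF wild-type oocytes (SD, n = 4). It was 1.12% ± 0.384 in SF knockout oocytes (SD, n = 5) and 0.792% ± 0.213 in SF wild-type oocytes (SD, n = 7). The single EAF knockout oocytes had 0.255% and 0.710%, against 0.0998%, 0.328%, 0.146% and 0.0415% in EAF wild-type oocytes. The SF knockout oocytes had 1.41%, 0.778%, 1.49%, 1.29% and 0.645%, against a range from 0.508% to 1.20% with a median of 0.756% in SF wild-type oocytes. The 3 highest of the 5 SF knockout oocytes lay above every SF wild-type oocyte, and the other 2 lay within the wild-type range.

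Outside the chromosome 17 stretch the levels were lower and the genotypes closer. The 2 EAF knockout oocytes had 0.101% and 0.444% there, with a mean of 0.273% ± 0.243, and the EAF wild-type oocytes averaged 0.0380% ± 0.0510. The SF knockout oocytes had 1.12%, 0.684%, 0.589%, 1.07% and 0.400%, with a mean of 0.772% ± 0.312. The SF wild-type oocytes averaged 0.617% ± 0.220 and ranged from 0.310% to 0.946%. The difference of SF knockout minus SF wild type was 0.330 percentage points over all members and 0.155 points outside the stretch, and the ranges overlapped in both cases. With each block weighted equally it was -0.649 points, so its sign depended on the weighting, and it also turned on another set of sites given below. Mitochondrial CpGs, given here beside the levels, read 0.105% and 0.253% methylated in EAF knockout and 0.0524% to 0.374% in EAF wild-type oocytes. They read up to 3.58% in SF knockout replicate 3 and up to 5.86% and 5.70% in SF wild-type replicates 2 and 4, and their part in the residual levels was not tested.

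**Figure D1:**
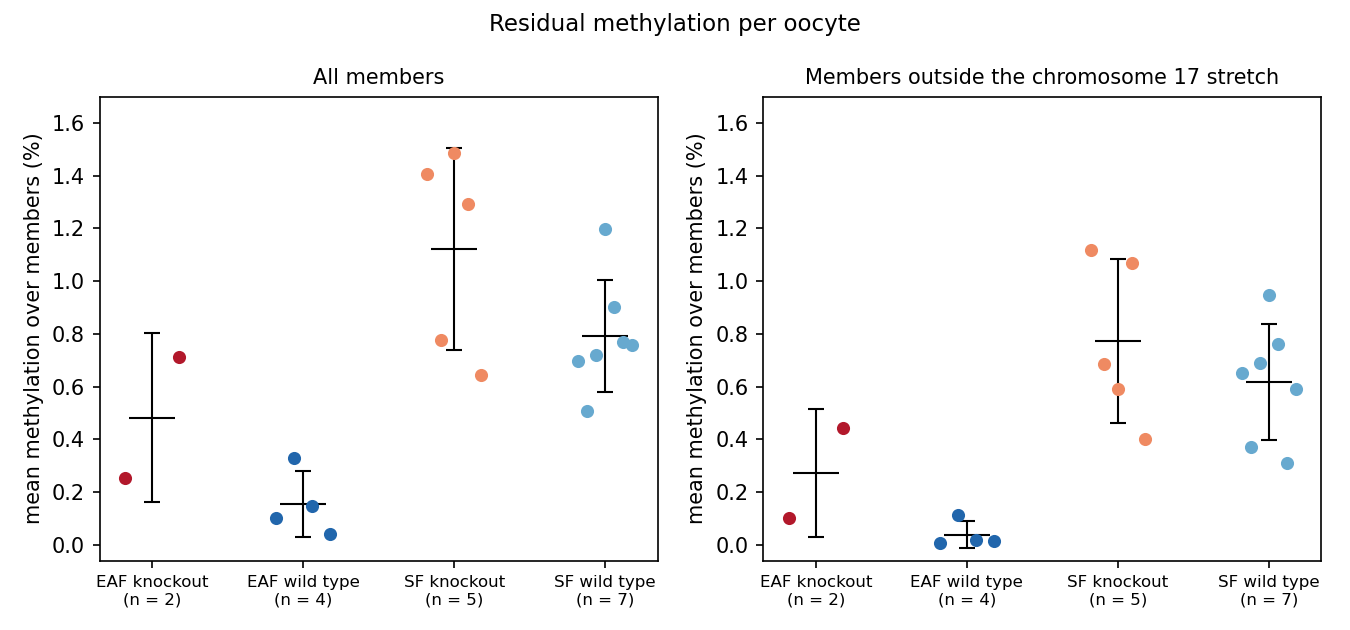
Mean methylation over members (percent) in each oocyte (points) for EAF knockout, EAF wild-type, SF knockout and SF wild-type oocytes, over all members (left) and without the chromosome 17 stretch (right); bars are mean and SD over oocytes. The SF knockout and SF wild-type points overlap in both panels, and the mean of the EAF wild-type oocytes, which chose the members, is the lowest.

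Between stages, EAF knockout minus SF knockout was -0.639 points over all members and -0.499 points outside the stretch. EAF knockout replicate 2 lay within the SF knockout range both times. The EAF wild-type oocytes lay below every SF wild-type oocyte, which the choice of members favours. Each EAF wild-type oocyte was therefore also scored on CpG-dense sites set by the other 3, with at least 1 of them having 5 reads there. Scored this way outside the stretch, EAF wild-type oocytes averaged 0.492% ± 0.266 (0.308% to 0.884%) and SF wild-type oocytes 0.658% ± 0.161 (0.449% to 0.906%), with overlapping ranges. With the stretch included, the means were 0.737% ± 0.347 in EAF wild-type oocytes and 0.714% ± 0.176 in SF wild-type oocytes, so the direction turned. Where at least 2 of the other 3 had 5 reads, EAF wild-type oocytes averaged 1.98% ± 1.36 and SF wild-type oocytes 0.979% ± 0.313 over all sites. Under both scorings the stretch made up a larger share of the sites read in EAF wild-type than in SF wild-type oocytes. With at least 2 others, EAF wild-type oocytes were read at 268.5 sites on average, 202 of them outside the stretch. SF wild-type oocytes were read at 520, with 464 outside. Outside the stretch this scoring gave 0.163% ± 0.135 in EAF wild-type oocytes and 0.610% ± 0.188 in SF wild-type oocytes. The ranges of the wild-type stages overlapped under each of these scorings.

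On sites outside the stretch set by at least 1 other oocyte, EAF knockout oocytes averaged 0.328% ± 0.0505 (0.293% and 0.364%) and SF knockout oocytes 0.624% ± 0.183 (0.446% to 0.899%), and these ranges did not overlap. On sites set by at least 2, the means were 0.244% ± 0.226 in EAF knockout oocytes and 0.772% ± 0.302 in SF knockout oocytes, and the ranges overlapped. SF knockout minus SF wild type was -0.0341 points on sites outside the stretch set by at least 1 other. The other scorings on sites set by other oocytes gave 0.162 to 0.476 points, and the SF ranges overlapped each time. EAF knockout minus EAF wild type was 0.235 points on the members outside the stretch. With the scored oocyte left out it was -0.164 points there on sites set by at least 1 other and 0.0813 points on sites set by at least 2. Over all sites it was -0.351 and -1.34 points, where the stretch made up more of the sites read in EAF wild-type than in EAF knockout oocytes. Its sign was thus not the same under every scoring, and the EAF genotype ranges overlapped each time.

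The dense members were lower in residual methylation than CpG-poor sites chosen by the same reads and level rule. The 3202 CpG-poor sites, with 1 to 4 CpGs within 100 bp, averaged 6.29% ± 1.86 in EAF knockout oocytes and 0.849% ± 0.385 in EAF wild-type oocytes. They averaged 8.41% ± 5.91 in SF knockout oocytes and 7.04% ± 2.24 in SF wild-type oocytes. In the 3 groups that did not choose the sites, the lowest oocyte at CpG-poor sites, at 4.22%, lay above the highest oocyte at the members, at 1.49%. The 98 dense CpGs between 10% and 80% in EAF wild-type oocytes averaged 5.55% ± 0.558 in EAF knockout, 14.5% ± 14.9 in SF knockout and 7.46% ± 4.95 in SF wild-type oocytes. Only 2 dense CpGs reached 80% in EAF wild type.

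Zero was the usual value of a member. Outside the chromosome 17 stretch, the share of members expected at 0 when 5 reads are drawn from each averaged 99.4% in EAF knockout, 99.8% in EAF wild-type, 98.8% in SF knockout and 99.1% in SF wild-type oocytes. SF knockout replicate 1 was lowest at 97.4%, with a methylated read at 41 of its 1331 members. Those reads were few and clustered. The members at 50% or above and the chromosome 17 stretch held most of the methylated reads, as the plot of where methylated reads lie shows. The stretch held 89.7% and 91.8% of the methylated reads on members in the EAF knockout oocytes and 90.5% to 99.4% in EAF wild-type oocytes. It held 73.8% to 94.0% in SF knockout oocytes and 15.8% to 92.3% in SF wild-type oocytes. Members at 50% or above elsewhere held 4.22% to 25.9% in SF knockout oocytes and 2.07% to 76.8% in SF wild-type oocytes.

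**Figure D2:**
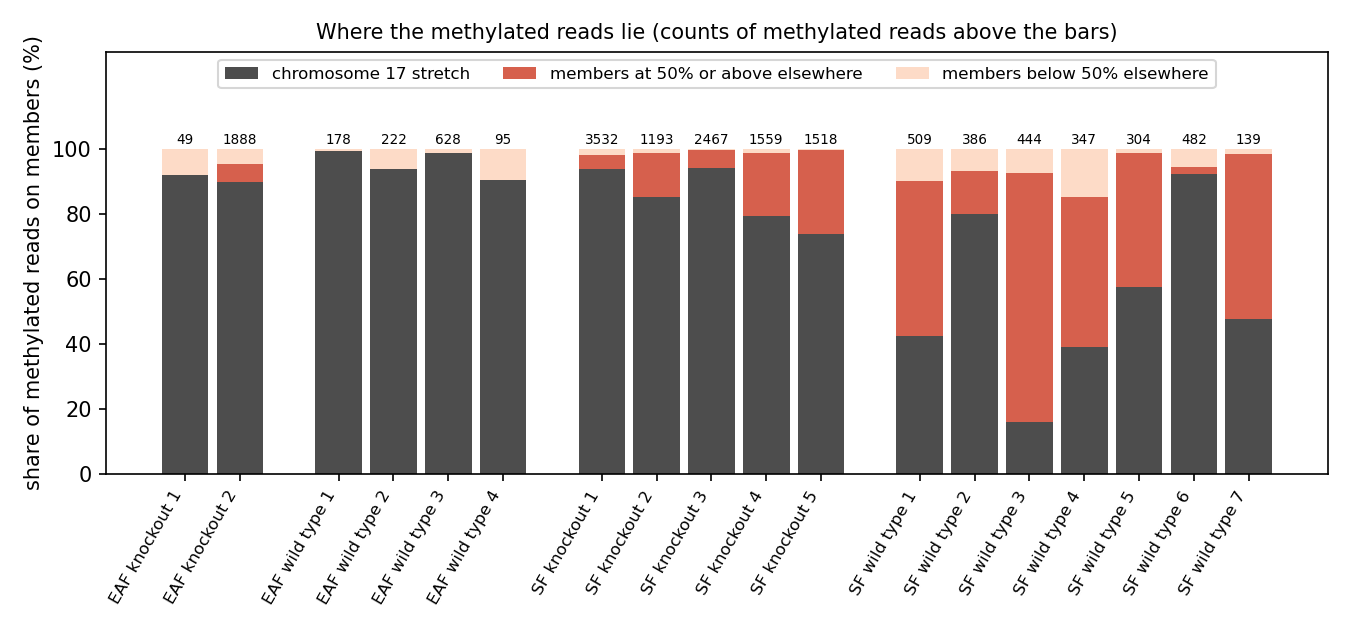
Share of the methylated reads on members (percent, bars from 0) in each oocyte that lay on the chromosome 17 stretch, at members at 50% or above elsewhere, or at members below 50% elsewhere, with the number of methylated reads above each bar. The stretch holds at least 73.8% of them in every EAF and SF knockout oocyte, and between 15.8% and 92.3% in SF wild-type oocytes.

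On the chromosome 17 stretch the members were partly methylated and varied widely between oocytes. The EAF knockout oocytes had 1.67% and 6.28% there, and the EAF wild-type oocytes averaged 3.84% ± 2.31. The SF knockout oocytes had 7.91%, 3.16%, 15.6%, 5.04% and 5.25%, against a range from 1.05% to 8.98% with a median of 2.31% in SF wild-type oocytes. SF knockout replicate 3 lay above the rest and the other 4 lay within the SF wild-type range. Within the stretch, the block at 39985523 to 39985590 with 6 members had 2.43% and 14.7% in EAF knockout oocytes and 7.41%, 6.88%, 11.1% and 0.279% in EAF wild-type oocytes. The same block had 12.4%, 2.58%, 13.1%, 15.9% and 2.89% in SF knockout oocytes, and 0% to 4.55% in SF wild-type oocytes. At this block 3 of the SF knockout oocytes were above every SF wild-type oocyte and 2 were within their range. At the 13 members of 39981496 to 39981605, SF knockout replicate 3 had 27.1% and the other SF knockout oocytes 2.66% to 6.21%, against 0.192% to 2.42% in SF wild-type oocytes. Those ranges lay narrowly apart, at 2.42% and 2.66%, and SF knockout minus SF wild type was 7.50 points. This block and the one before it were named for their large SF genotype difference, so the separation of their oocytes is a description only. The 4 members of 39981144 to 39981198 went the other way, at -5.86 points. That value turned on SF wild-type replicate 4, where 5 of 5 reads at a single member were methylated.

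Setting aside the members at 50% or above lowers the level by construction, and it left little methylation outside the stretch. The levels were then 0.101% and 0.104% in EAF knockout oocytes and 0.0380% ± 0.0510 in EAF wild-type oocytes. In SF knockout oocytes they were 0.547%, 0.0439%, 0.0533%, 0.115% and 0.0157%, against 0.0193% to 0.234% in SF wild-type oocytes. SF knockout replicate 1 lay above every other oocyte and the other 4 SF knockout oocytes lay within or below the SF wild-type range. In replicate 1, the chromosome 13 block from 45174196 to 45174312 averaged 41.0% over 15 members, of which 4 were set aside. Its other members, below 50%, stayed in that oocyte's level and made up much of it.

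The rare exceptions, members at 50% or above with at least 5 reads in an oocyte, numbered 86 pairs of a member and an oocyte. Of these, 8 lay on the chromosome 17 stretch and 78 elsewhere, at 73 members in 56 of 417 blocks. They made up 5 of 1658 pairs in EAF knockout oocytes (0.302%, interval 0.0980% to 0.702%), 39 of 5847 in SF knockout oocytes (0.667%, 0.475% to 0.911%) and 34 of 5951 in SF wild-type oocytes (0.571%, 0.396% to 0.797%). Over all autosomal CpGs with 5 reads, 8.78% were at 50% or above in EAF knockout, 20.8% in EAF wild-type, 11.5% in SF knockout and 14.6% in SF wild-type oocytes. Every SF oocyte had exceptions, 5 to 10 in knockout oocytes and 2 to 11 in wild-type oocytes. In EAF knockout oocytes all 5 were in replicate 2. Replicate 1 had 0 of 506, which allows a share of up to 0.593% when the limit is set at 3 counts, with an exact upper bound of 0.726%. With at most 4 oocytes in the mean, the rule leaves no room for a member at 50% in EAF wild-type oocytes. On sites set by at least 1 of the other 3, the EAF wild-type oocytes held 8, 13, 9 and 7 such CpGs outside the stretch, a mean share of 0.468%, against 0.637% in SF wild-type oocytes. On sites set by at least 2 others these shares were 0.108% and 0.542%.

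An exception was usually a single CpG, methylated on the strand that was read, among unmethylated ones. Of the 78 outside the stretch, 55 were at 90% or above and 48 at 100%. At 53 of them, every other CpG read 5 times within 50 bp in the same oocyte was at 10% or below, with a median of 11 such neighbours. Over all 78, 790 of 879 neighbours, or 89.9%, were at 10% or below. That share is lower than among members at large, but the neighbours include CpGs that are not members. Most of the neighbours above 10% lay around the chromosome 13 block from 45174196 to 45174312, in SF knockout replicate 1 and SF wild-type replicate 1. The 50 bp windows of those exceptions overlap, so a neighbour there is counted for several of them. Outside the stretch, members at 0 averaged 99.1% in EAF knockout, 98.4% in SF knockout and 98.7% in SF wild-type oocytes. The mean level of neighbours was 4.83% at 1 to 10 bp and 7.16% at 81 to 100 bp, and the distance classes between lay from 3.13% to 9.11% with no steady order. The other 25 exceptions had a neighbour above 10% and lay in 8 blocks.

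**Figure D3:**
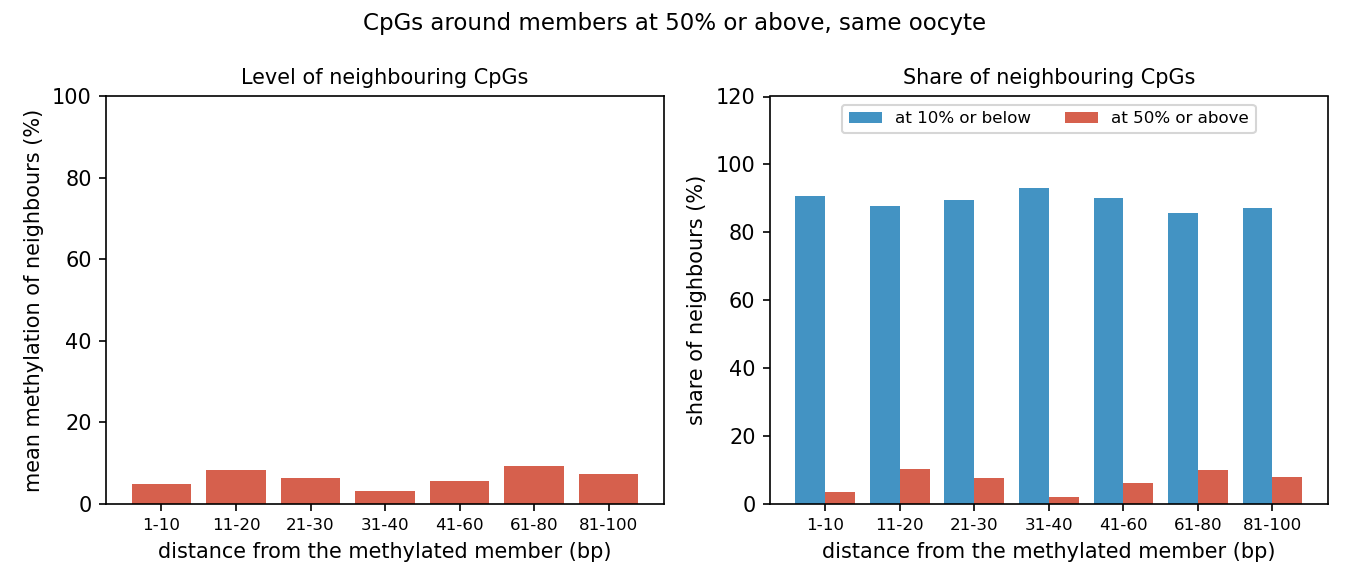
Mean methylation (percent, left) and shares at 10% or below and at 50% or above (percent, right) of CpGs with 5 reads, by distance in bp from a member at 50% or above in the same oocyte, outside the chromosome 17 stretch. In every distance class at least 85.5% of neighbours are at 10% or below, and the mean level stays under 10%. Members at large outside the stretch averaged 0.273% in EAF knockout, 0.772% in SF knockout and 0.617% in SF wild-type oocytes. Exceptions of the chromosome 13 block, which share neighbours, hold most of the neighbours above 10% within 50 bp.

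Of the exceptions whose neighbours within 50 bp were all at 10% or below, 7 had at least 60 reads, and the wild-type EAF oocytes are among the other oocytes counted at them. On chromosome 5 at position 96590309, SF knockout replicate 4 had 99 of 99 reads methylated while all 14 neighbours read within 50 bp were at 0, and 5 other oocytes were at 0 at this CpG. On chromosome 8 at 12672176, SF knockout replicate 5 had 165 of 166 reads methylated, and the 9 neighbours read within 50 bp were at 0. A second member of that block, 12672078, had 165 of 165 in the same oocyte and was not alone, since a CpG at 12672063 that is no member had 163 of 163. No other methylated read fell on the 20 members of the block, which had 330 methylated among 3301 reads. SF knockout replicate 3 had 64 of 65 on chromosome 13 at 45174261. On chromosome 7 at 29804999, SF wild-type replicate 3 had 276 of 334 reads methylated, and the 5 other oocytes read there were at 0. On chromosome 5 at 113006195, SF wild-type replicate 1 had 127 of 166, with all 18 neighbours and the 4 other oocytes at 0. On chromosome 16 at 23127848, SF wild-type replicate 7 had 65 of 65, and on chromosome 7 at 88358830 SF wild-type replicate 5 had 54 of 60. These cases stand beside unmethylated CpGs of the same oocyte.

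At somewhat lower depth, a block on chromosome 8 was methylated at a different CpG in each of 2 oocytes. At 98239861, EAF knockout replicate 2 had 41 of 41 methylated reads. At 98239947, SF knockout replicate 1 had 46 of 46.

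Most exception members were methylated in a single oocyte. The EAF wild-type oocytes, which the rule holds near 0, are left out here. In other oocytes, 302 of 324 readings of the exception members, or 93.2%, were at 0, and 10, or 3.09%, were at 50% or above. Over all members outside the stretch, the latter share was 0.302% in EAF knockout, 0.667% in SF knockout and 0.571% in SF wild-type oocytes. The higher share came from 5 members, 4 of them in a single chromosome 13 block whose CpGs can share reads. It is therefore not read as a trait of exception members. A member was an exception in a single oocyte at 68 of the 73 members and in at least 2 oocytes at 5. In the chromosome 6 block from 86682837 to 86682869, SF knockout replicates 1 and 3 had no methylated read. At 86682868 in it, SF wild-type replicates 1 and 4 had 30 of 30 and 45 of 45 reads methylated, while SF wild-type replicate 2 had no methylated read in the block and replicate 3 had 1. The other 4 recurrent members lay in a block on chromosome 13. Knockout oocytes of both stages together had exceptions at 44 members and SF wild-type oocytes at 33. Those 4 members were common to both, 9.09% of the knockout list and 12.1% of the wild-type list. Among the 2682 members outside the stretch read in both a knockout and an SF wild-type oocyte, 39 were at 50% or above in a knockout oocyte and 32 in an SF wild-type oocyte, the 4 shared ones included. Over all 226059 autosomal CpGs read in both, 36941 and 40439 were, with 53.8% and 49.1% shared. High CpGs are far more common there, so nothing particular to the members is read from their overlap.

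The chromosome 13 block, from 45174196 to 45174312 with 16 members, had the highest mean level outside the stretch in SF knockout oocytes. SF knockout replicates 1, 3 and 5 had 41.0%, 6.15% and 0%, and SF wild-type replicates 1 and 4 had 27.7% and 0%. Both EAF knockout oocytes and the 2 EAF wild-type oocytes read there were at 0. The pattern differed in each methylated oocyte. SF knockout replicate 1 had 37 methylated among 89 reads over 15 members, of which 4 reached 50%. SF knockout replicate 3 had 64 of 65 methylated at 45174261 and none of the reads at its other 15 members. SF wild-type replicate 1 had 8 methylated of 10 or 11 reads at 45174212, 45174227, 45174257, 45174290, 45174304 and 45174307, and no methylated read at the other 10 members. All of these exceptions were seen on the plus strand.

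A second block with several methylated CpGs lay on chromosome 5 from 144015268 to 144015349. In SF knockout replicate 4 its members at 144015268, 144015279, 144015339 and 144015348 had 9 of 9, 8 of 8, 9 of 9 and 9 of 9 reads methylated, and its other 10 members had none. SF knockout replicate 1 had 0 of 1070 reads methylated in the block, and SF wild-type replicates 1 and 4 had 0 of 70 and 0 of 179. This gave the largest block difference of SF knockout minus SF wild type outside the stretch, 14.3 points, from a single oocyte. The largest in the other direction, -16.5 points, was the chromosome 7 block from 29804999 to 29805085, where SF wild-type replicate 3 was read at that first CpG alone. The next were -12.6 points at chromosome 6 from 86682837 to 86682869 and -12.5 points at chromosome 10 from 81111947 to 81111979. In the chromosome 10 block SF knockout replicates 3 and 5 were at 0, and SF wild-type replicate 5 had 20 of 20 reads methylated at 81111957. In the knockout direction, chromosome 8 from 12672065 to 12672177 followed at 4.97 points and chromosome 7 from 20092560 to 20092619 at 3.39 points, each with its exceptions in 1 SF knockout oocyte.

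A deeply read block on chromosome 4, from 145426987 to 145427195 with 25 members, was methylated in several oocytes at different CpGs. EAF knockout oocytes had 0% and 0.370% there, and EAF wild-type oocytes 0%, 0%, 0% and 0.0909%. SF knockout oocytes had 9.02%, 0.107%, 1.00%, 5.76% and 0%, and SF wild-type oocytes 0%, 3.45%, 7.02%, 0%, 0%, 1.01% and 0%. The exceptions were at 145427089 and 145427110 in SF knockout replicate 4, at 145427160 in SF wild-type replicate 2 and at 145427035 in SF wild-type replicate 3. The 2 SF groups overlapped throughout. A chromosome 8 block from 23970179 to 23970300 also had an exception in 1 oocyte of each SF genotype, 8 of 8 reads at 23970259 in SF knockout replicate 2 and 37 of 37 at 23970221 in SF wild-type replicate 3.

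By contrast, the blocks with most members were blank or nearly so. The block of 35 members on chromosome 2 from 37558805 to 37559007 had 0 methylated among 546 reads in SF wild-type replicate 7, the only oocyte outside the choosing group read there. The block of 30 on chromosome 12 from 103943370 to 103943544 had 0 of 319 in SF knockout replicate 2 and 0 of 315 in SF wild-type replicate 1. The block of 32 on chromosome 5 from 33617581 to 33617726 was read in SF wild-type replicate 6 among the other groups. It had 6 of 6 reads methylated at 33617630 and none elsewhere. In EAF knockout oocytes the highest block outside the stretch was chromosome 12 from 70285564 to 70285627. Replicate 2 had 10 of 12 reads methylated at 70285619 there and replicate 1 had 0 of 73 in the block. Of the blocks with at least 3 members read in at least 2 oocytes, 21 of 28 were at 0 in EAF knockout, 125 of 160 in SF knockout and 97 of 137 in SF wild-type oocytes.

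Some exceptions may share reads, since the files do not show how repeated sequence was treated. A set of 3 members on chromosome 1, at 172995576, 173003211 and 173010825, had 18 of 18, 17 of 17 and 21 of 21 reads methylated in SF knockout replicate 2, all on the minus strand. They lie 7635 and 7614 bp apart, and the CpG positions within 60 bp of each were spaced alike at all 17 positions. A pair on chromosome 10, at 81111957 and 81275074 in SF wild-type replicate 5, shared 93.8% of their CpG spacing, with 20 of 20 and 14 of 14 reads methylated. These 5 exceptions cannot be counted as separate events with certainty.

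By strand, neither strand was higher throughout. Outside the stretch, the minus strand averaged 0% and 0.667% in EAF knockout oocytes, and the plus strand 0% and 0.199%. In SF knockout oocytes the minus strand was higher in 4 of 5, with 0.676%, 0.717%, 0.643%, 1.30% and 0.532% on the minus strand and 1.30%, 0.643%, 0.488%, 0.904% and 0.152% on the plus strand. In SF wild-type oocytes it was higher in 4 of 7, with 0.268% to 1.05% on the minus strand and 0% to 1.07% on the plus strand. Over members with 5 reads on each strand, with the stretch included, minus minus plus averaged 0.342 ± 0.706 points in EAF knockout and -0.261 ± 0.951 in EAF wild type. It averaged -0.340 ± 2.64 in SF knockout and -0.0193 ± 2.49 in SF wild type. Without the stretch it averaged 0.458 ± 0.648 points in EAF knockout and -0.0117 ± 0.0384 in EAF wild type. It was then 1.19 ± 1.63 in SF knockout and 0.564 ± 0.662 in SF wild type, so the sign turned in both SF groups. It turned there too with at least 1 read, at 1.00 and 0.657 points, and with at least 10 reads, at 4.11 and 1.79 points. At 5 reads, with and without the stretch, each mean was smaller than its SD over oocytes. By oocyte and without the stretch, the difference ran from 0 to 0.916 points in EAF knockout and from 0 to 1.85 in SF wild type. It ran from -0.628 to 3.47 in SF knockout, where replicate 2 alone lay below 0.

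**Figure D4:**
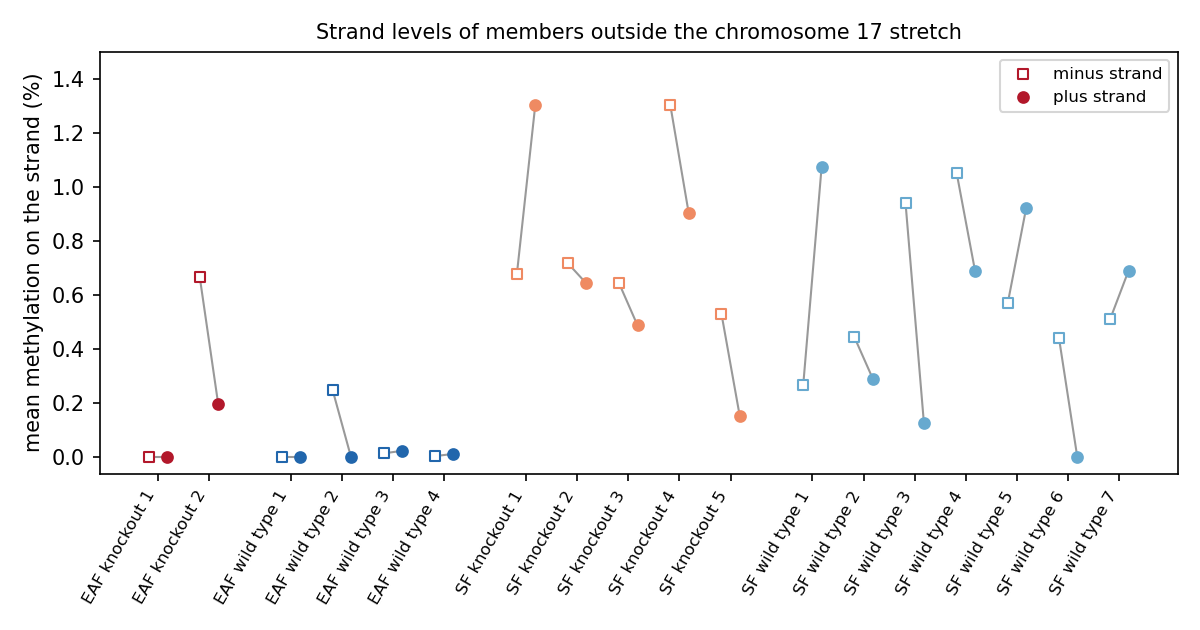
Mean methylation (percent) of members outside the chromosome 17 stretch on the minus strand (open squares) and the plus strand (filled circles) in each oocyte, with at least 5 reads on the strand; a line joins the strands of an oocyte. The minus strand is higher in 4 of 5 SF knockout and 4 of 7 SF wild-type oocytes.

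Within single CpGs outside the stretch, a strand at 50% or above stood opposite a strand with no methylated read wherever both had 5 reads. Most exceptions were read on a single strand, 37 with methylated reads on the plus strand alone, 40 on the minus strand alone and 1 on both, and only 3 had 5 reads on each strand. The one on both was chromosome 4 position 145427160 in SF wild-type replicate 2, with 1 of 2 minus-strand and 6 of 9 plus-strand reads methylated. A wider count took all 1460 pairs of a member and an oocyte outside the stretch with 5 reads on each strand, EAF wild-type oocytes left out. Both strands were at 0 in 1433 of them, or 98.2%. A strand reached 50% in 10, and in all 10 the other strand had no methylated read. None of the 10 was at 50% on both strands, which allows a share of up to 30%. Over all autosomal CpGs read this way, both strands reached 50% in 9042 of 24148 pairs in which either did, or 37.4%. CpG-poor unmethylated sites gave 13 of 61, or 21.3%, and the chromosome 17 members 1 of 11.

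These 10 one-sided CpGs were spread over 8 oocytes. EAF knockout replicate 2 had 46 of 46 reads methylated on the minus strand and 0 of 59 on the plus strand at chromosome 2 position 163028815. SF knockout replicate 4 had 56 of 69 on the minus strand and 0 of 25 on the plus strand at chromosome 4 position 145427110. SF wild-type replicate 1 had 43 of 43 on the minus strand and 0 of 99 on the plus strand at chromosome 16 position 77014333. The methylated strand was the minus strand in 9 of the 10, with SF knockout replicate 2 the exception at chromosome 8 position 109459984, where 0 of 10 minus-strand and 6 of 6 plus-strand reads were methylated. Among one-sided CpGs of the whole autosomal set the minus strand was the methylated one in 48.8%. At chromosome 4 position 124762312, SF knockout replicate 5 had 10 of 10 methylated reads, all on the plus strand. SF wild-type replicate 2 had 17 of 17 reads methylated on the minus strand of the same CpG and 0 of 23 on the plus strand.

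Distance from the end of the dense run did not order the residual methylation. A run is a stretch of CpG-dense positions with gaps of at most 100 bp, and members lay in 421 of 5822 runs, with a median run length of 128 bp. Members within 50 bp of a run end numbered 2675 and those at least 100 bp from both ends 447. Over all members, edge minus interior was -0.132 ± 0.290 points in EAF knockout and -0.460 ± 0.397 in EAF wild type. It was -1.12 ± 1.02 in SF knockout and -0.353 ± 0.902 in SF wild type. Outside the chromosome 17 stretch these values became 0.222 and 0.0256 in the EAF groups and -0.0182 and -0.178 in the SF groups. On the stretch, 25 of the 65 members lay in the interior and 14 at an edge. Leaving it out turned the sign in both EAF groups and brought SF knockout close to 0, while SF wild type stayed negative. Outside it, the edge was higher in 2 of 2 EAF knockout, 4 of 4 EAF wild-type, 2 of 5 SF knockout and 3 of 7 SF wild-type oocytes.

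Neither did the end CpG itself differ steadily. End CpGs outside the stretch averaged 0.310% in EAF knockout and 0.0433% in EAF wild type, and 1.36% ± 1.44 in SF knockout and 0.425% ± 0.573 in SF wild type. Members 50 to 99 bp inside averaged 0.487%, 0.0226%, 0.827% ± 0.478 and 0.532% ± 0.474 in the same 4 groups. Exceptions followed the members' own distribution, with 65.4% of them within 50 bp of a run end against 65.0% of all pairs read in the same 3 groups, and 10.3% at least 100 bp inside against 9.71%.

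**Figure D5:**
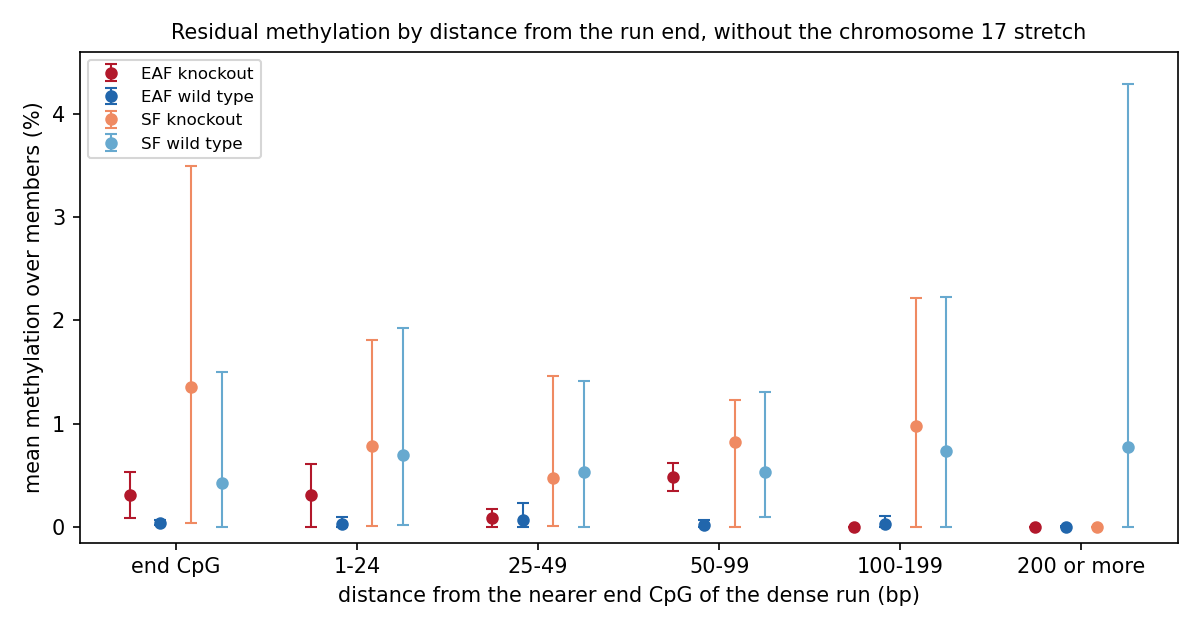
Mean methylation (percent) of members outside the chromosome 17 stretch by distance in bp from the nearer end CpG of the dense run, for EAF knockout, EAF wild-type, SF knockout and SF wild-type oocytes; points are means over oocytes and bars the lowest and highest oocyte. The bars of both SF groups overlap in every class below 200 bp and no group rises or falls steadily with distance.

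In the 3 groups that did not choose the members, mean levels differed more by the place of a CpG in the sequenced stretch than by its place in the run. CpGs with 5 reads on a strand were joined where at most 100 bp apart, and the first CpG of each stretch was taken in the direction of the strand. Outside the chromosome 17 stretch and without the EAF wild-type oocytes, 12 of 342 member readings at a first CpG were at 50% or above, or 3.51% (interval 1.83% to 6.05%). Between the ends it was 70 of 13807, or 0.507% (0.395% to 0.640%), and at last CpGs 2 of 627, or 0.319%. The 12 came from 10 oocytes. Readings in a block of the same oocyte can share molecules and are not independent, so these intervals are too narrow. The mean level at first CpGs was above that of CpGs between the ends in 10 of these 14 oocytes, the same 10 that held the 12. First CpGs numbered only 9 to 38 readings in an oocyte, so a single high CpG moves such a mean by points. Mean levels at first CpGs were 2.34% in EAF knockout (0% and 4.69%), 0% in EAF wild-type, 2.85% ± 1.92 in SF knockout and 4.95% ± 3.62 in SF wild-type oocytes. Between the ends they were 0.170%, 0.0378%, 0.678% ± 0.282 and 0.509% ± 0.249. Over all autosomal CpGs of the same 14 oocytes, 16.0% of readings at first CpGs and 11.2% between the ends were at 50% or above. At CpG-poor unmethylated sites the shares were 8.31% at first CpGs and 6.90% between the ends.

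Density among members did not separate levels either. With 20 to 24, 25 to 29 and 30 or more CpGs in the window, SF knockout oocytes averaged 0.797%, 0.803% and 0.328% outside the stretch, and SF wild-type oocytes 0.588%, 0.705% and 0.436%. Each of these differences was within the range over oocytes. EAF knockout oocytes averaged 0.367%, 0.0109% and 0.739% in the same classes, and the last ran from 0% to 1.48% over the 2 oocytes. At members within 250 bp of a CpG at 50% or above in EAF wild type, EAF knockout oocytes were at 0%, SF knockout oocytes averaged 0.752% and ranged from 0% to 1.47%, and SF wild-type oocytes averaged 0.0138% with a highest value of 0.0475%. At members over 5000 bp from such a CpG the same groups averaged 0.321%, 0.784% and 0.689%. In the near class an oocyte of these groups was read at 18 to 154 members. Its 4 exceptions were in SF knockout replicates 1, 2 and 5, and SF knockout replicate 4 had 0.528% there with none.

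At single CpGs, differences of 20 points or more between group means were few, apart from falls from SF knockout to EAF knockout. For SF knockout against SF wild type, 17 of 952 members (1.79%) were higher by 20 points, against 6.55% of all autosomal CpGs compared. In the other direction 14 (1.47%) were lower, against 11.8%. Outside the stretch, 17 of 897 were higher and 13 lower. Over the 952 members the mean difference was 0.357 points and the median 0, with 817 members equal in both groups. For EAF knockout against EAF wild type, 2 of 324 were higher, against 2.98%, and 0 were lower, against 18.2%. The rule leaves no room for a fall there. For EAF wild type against SF wild type, 0 of 1597 were higher, against 11.4%, and 28 were lower, against 4.75%, and the rule used that contrast's EAF values. For EAF knockout against SF knockout, 0 of 235 were higher, against 4.22%, and 13 (5.53%) were lower, against 7.07%. Outside the stretch 13 of 181 (7.18%) were lower, near that share. These counts are by size of difference only, and members share blocks and reads.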

How the data were processed

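Per the labels' protocols, MspI-cut DNA of 1 oocyte was ligated, bisulfite converted and amplified. BSMAP 2.89 and build mm9 are named in the submitters' processing notes. Per the file headers, the deposited tables hold counts of all and of methylated reads per CpG, summed and per strand, and a ratio, the methylated fraction from 0 to 1. The sources used here do not give the authors' filters or how reads with several matches were handled. Reads of the lambda spike-in were not analysed here. Positions are the deposited starts plus 1.

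From the counts, levels were computed at CpGs with at least 5 reads, and an oocyte's level is the mean over members, each weighted equally (pandas 2.3.3 and numpy 2.4.6, with scipy 1.17.1 for intervals). The scripts were tested on simulated data. Read totals are sums over CpGs, so a read over several CpGs is counted at each. Named blocks are the 3 with most members, the 3 highest in each of EAF knockout, SF knockout and SF wild type, and the 3 largest SF genotype differences each way, with and without the chromosome 17 stretch. The single CpGs described, the strand cases and that stretch were picked after their values were seen. The split by place in the sequenced stretch was not planned beforehand. The members and lists were chosen with earlier results of these data known. Alternatives varied the reads, level and density thresholds, weights, edge definition and oocytes. Same-numbered oocytes were not taken as pairs, since the correlation of their deviations over members was above 0.1 in 1 of 13 pairs.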

Additional observations from a re-analysis of the deposited data

Results flagged for a closer look

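Of 29 sets of oocyte values, each a measure within a group of 4 to 7 oocytes, 5 had an oocyte that stood apart by its gap to the nearest one. A rate of about 1 in 20 by chance holds for independent sets only. These sets restate one another in part, so the count is not set against that rate. EAF wild-type replicate 2 had a level of 0.114% outside the chromosome 17 stretch, against 0.0165% in the next oocyte. It had the same 0.114% once exceptions were set aside, since the rule leaves none in this group, so these are not separate cases. Its share of members at 0 with 5 reads drawn was 99.5%, against 99.9% in the next. It is the shallowest of its group on members, with a median of 7 reads. SF knockout replicate 1 had 0.547% outside the stretch with exceptions set aside, against 0.115% in the next SF knockout oocyte. Members below 50% in the chromosome 13 block made up much of that value. SF wild-type replicate 4 had a minus minus plus strand difference of -5.44 points, against 0.0171 in the next, from 18 members read on both strands.

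Outside the members, 107 X-linked CpGs met the rest of the rule. SF knockout replicate 5 had a level of 4.76% on 21 of them, above the highest SF wild-type oocyte at 0.135%, and the other 3 SF knockout oocytes read there were at 0. EAF knockout replicate 2 had 0.0321% on 38, and the EAF wild-type oocytes were at 0.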

How the results depend on the processing

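Levels are in percent and differences in percentage points, and a value counted as moved when it shifted by at least the SD between oocytes. Over 351 values under other settings 278 did not move. The causes of the other shifts were not tested.

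With members of at least 1 read there were 13112 members, and with 10 reads 1557. At 10 reads EAF wild type was at 0.365, SF knockout at 1.57, the strand difference at 1.47 in EAF knockout and 4.11 in SF knockout, and edge minus interior at -0.861 in EAF wild type. Weighted by reads, levels were 1.52 in EAF knockout, 0.772 in EAF wild type, 2.97 in SF knockout and 1.32 in SF wild type. SF knockout minus SF wild type was then 1.66, EAF knockout minus EAF wild type 0.743 and EAF knockout minus SF knockout -1.46. The strand difference was -2.08 in EAF knockout, and edge minus interior 0.323 in EAF knockout, -1.68 in EAF wild type and -2.24 in SF knockout. Weighted by block, levels were 1.05 in EAF knockout, 0.284 in EAF wild type and 1.93 in SF wild type. SF knockout minus SF wild type was -0.649, EAF knockout minus EAF wild type 0.770, EAF wild type minus SF wild type -1.65 and EAF knockout minus SF knockout -0.226.

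A limit of 20% put EAF wild type at 0.344. Density 25 left 1591 members. Density 15 gave 8629, with EAF knockout at 0.920, SF wild type at 1.02 and EAF knockout minus EAF wild type at 0.728. Reads in all 4 EAF wild-type oocytes left 62 members, with 3.86 in EAF knockout, 3.78 in EAF wild type, 7.46 in SF knockout and 3.64 in SF wild type. The differences were 3.82 for SF knockout minus SF wild type, 0.145 for EAF wild type minus SF wild type and -3.60 for EAF knockout minus SF knockout. Over members read in every oocyte of both groups they were 4.98 and 1.29, with -0.176 for EAF knockout minus EAF wild type and -3.50 for EAF knockout minus SF knockout. Over members read in every oocyte of a group, levels were 0.855 in EAF knockout, 3.78 in EAF wild type, 6.65 in SF knockout and 2.58 in SF wild type. Exceptions above 20% made up 0.0989% in EAF wild type, 1.24% in SF knockout and 0.915% in SF wild type.

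The following were chosen after seeing the data, apart from scoring by at least 2 other oocytes. Without the chromosome 17 stretch, edge minus interior was 0.222 in EAF knockout, 0.0256 in EAF wild type and -0.0182 in SF knockout. With the stretch included, sites set by at least 2 other EAF wild-type oocytes put EAF wild type at 1.98. EAF knockout minus EAF wild type was then -1.34 and EAF wild type minus SF wild type 1.00. With at least 1 other oocyte and without the stretch, EAF wild type was at 0.492 and SF knockout at 0.624, EAF knockout minus EAF wild type at -0.164 and EAF wild type minus SF wild type at -0.166.

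Leaving out each oocyte in turn, with members set anew where it was an EAF wild-type one, gave 1812 to 2815 members. Levels then ran 0.255 to 0.774 in EAF knockout, 0.107 to 0.293 in EAF wild type, 1.03 to 1.74 in SF knockout and 0.725 to 1.44 in SF wild type. SF knockout minus SF wild type ran 0.238 to 0.723. EAF knockout minus EAF wild type ran 0.101 to 0.556. EAF wild type minus SF wild type ran -1.21 to -0.539. EAF knockout minus SF knockout ran -0.989 to -0.412. The strand difference ran -0.913 to 0.841 in EAF knockout, -0.689 to 0.298 in EAF wild type, -1.22 to 0.79 in SF knockout and -3.4 to 0.884 in SF wild type. Edge minus interior ran -0.793 to 0.0734 in EAF knockout, -0.854 to -0.346 in EAF wild type, -2.1 to -0.77 in SF knockout and -0.87 to -0.0286 in SF wild type. Exception shares ran 0 to 0.414 in EAF knockout, 0.596 to 0.997 in SF knockout and 0.421 to 1.17 in SF wild type, and stayed 0 in EAF wild type.
The differences over same-numbered oocytes (the replicate block) were 0.317 for SF knockout minus SF wild type, 0.268 for EAF knockout minus EAF wild type, -0.626 for EAF wild type minus SF wild type and -0.610 for EAF knockout minus SF knockout. None moved. Depth limits most values, since few members were read in any 2 oocytes alike and the EAF knockout group rests on 2 oocytes.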
